A study of Homo sapiens with 8 samples.

Results

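The aminoacyl-tRNA synthetases of HepG2 cells were examined as a list of 35 genes, divided into the enzymes that charge tRNA in the cytosol and those that do so in mitochondria. The mitochondrial set holds the symbols ending in 2, and the cytosolic set holds the rest. Of the 35 genes, 34 had a row among the 20897 genes of the files, namely 19 of 19 cytosolic and 15 of 16 mitochondrial genes, and MARS2 was not analysed here. HepG2 is an established human hepatocellular carcinoma line, and polyA RNA was sequenced from cells given genistein (3 libraries), BMP6 (2 libraries) or vehicle alone (DMSO, 3 libraries). Genistein is a soy isoflavone that inhibits tyrosine kinases, and BMP6 is a bone morphogenetic protein that raises hepcidin in hepatocytes, which is the subject of the series' title. The genistein dose is 10 micromolar in the series design but 10 millimolar in the treatment protocol, and BMP6 was used at 50 ng/ml. Every well of all 3 groups held 1% DMSO. All cells had been moved to medium with 1% serum 24 h after plating and were treated 8 h later for 18 h. Libraries of a group are described as biological replicates in the series design, all from this tumour line and not from primary liver.

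Aminoacyl-tRNA synthetases join each amino acid to its tRNA, so that the ribosome can read the code. Most of the cytosolic and mitochondrial enzymes are encoded by separate nuclear genes, whereas GARS1 and KARS1 each serve both compartments. EPRS1 charges both glutamate and proline tRNA, and FARSA and FARSB are the subunits of the cytosolic phenylalanine enzyme. Mitochondria hold no separate glutamine enzyme and make glutaminyl-tRNA by amidation, for which QRSL1 is a subunit of the enzyme. When charged tRNA runs short, or when other stresses lead to phosphorylation of eIF2, the transcription factor ATF4 is translated, and many cytosolic synthetase genes are among its known targets, along with genes of amino acid synthesis and transport.

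Levels are FPKM, fragment numbers that the authors scaled to transcript length and library size before deposit, so they can be set side by side between genes. Tests used limma on log2(FPKM + 1), with the 3 groups sharing an estimate of the spread and Benjamini-Hochberg adjustment over the 12661 genes that reached 1 FPKM in 2 or more libraries. A gene is said to have risen or fallen where the adjusted p was under 0.05. All 34 synthetases passed the filter on low values. Sequencing depth is unknown. FPKM totals ran from 1704599 to 3105197 per library. Genistein 2 listed 2167 of the tested genes at 0 and DMSO 1 listed 1679, against 356 to 962 in the other libraries. The BMP6 libraries differed from each other more than the libraries of any other group, with a Pearson correlation over tested genes of 0.847. BMP6 1 correlated more closely with genistein 3 (0.8888) than with the other BMP6 library. All 8 hepatocyte markers, among them albumin and transferrin, were above 0 in every library, and their summed level was 129683 to 202309 FPKM with genistein, 169416 to 221820 with BMP6 and 119506 to 172145 with DMSO. Of these markers TTR, transthyretin, fell after genistein (log2 change -2.64, limma adjusted p = 0.0193). Of the other lineages, PTPRC and CD3E were listed at 0 in all libraries, 5 of 6 fibroblast markers were at 0 in every library apart from genistein 2 (6 of 6), and all 4 endothelial markers were at 0 in every library except BMP6 1 (2 of 4). The fibroblast marker PDGFRB measured 19.5 and 14.32 FPKM with BMP6, and 4.91, 1.879 and 3.636 FPKM with DMSO. It measured 2.918, 0 and 2.077 FPKM with genistein, and its log2 change with BMP6 against DMSO was 2.05 (limma adjusted p = 0.177). Among leukocyte markers, CD68 rose after genistein (log2 change 1.18, limma adjusted p = 0.0406) and LYZ fell (log2 change -1.58, limma adjusted p = 0.0448). The 5 leukocyte markers with a row summed to 1242 to 1955 FPKM with genistein, 1562 to 2401 with BMP6 and 3250 to 4859 with DMSO, a sum made up mostly of LYZ (1149 to 1839, 1493 to 2344 and 3219 to 4807 FPKM in the same groups). CD14, another of them, measured 31.96, 74.4 and 23.87 FPKM with genistein and was listed at 0 in DMSO 1 and DMSO 2 and at 19.31 FPKM in DMSO 3 (limma adjusted p = 0.0604). The part of these markers in the synthetase results was not tested.

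Transcripts of several cytosolic synthetases were higher in cells given genistein than in cells given DMSO, and no mitochondrial synthetase passed the test. Of the 19 cytosolic genes 8 rose and 0 fell, against 6.11% of all tested genes called higher and 5.96% called lower (12.1% in either direction). The 8 were AARS1, IARS1, FARSB, MARS1, SARS1, WARS1, LARS1 and CARS1. The median log2 change was 1.35 over the 19 cytosolic genes and 0.05 over all tested genes. Of the 19 changes 18 were positive, against 51.5% over all tested genes. In 14 cytosolic genes every genistein library lay above every DMSO library, and in 0 below, whereas 23.3% of all tested genes were separate in the higher direction and 20.6% in the lower (43.9% in either). Of the 15 mitochondrial genes 0 were called by limma, and 5 changes were positive, with a median log2 change of -0.07. An unadjusted limma p under 0.05 was reached by 2 of the 15 and by 13 of the 19 cytosolic genes. Among all 12661 tested genes it was reached by 3792. A higher FPKM of a gene can reflect more of its transcript per cell or a changed mix of cells, and these cannot be told apart in bulk samples. The difference between the cytosolic and the mitochondrial set was not itself tested.

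The number of cytosolic calls depended on the libraries. It was 3 without DMSO 1 and genistein 2, the libraries with most genes at 0, where 1.22% of all tested genes were called higher. With 1 genistein library left out, it was 2 without genistein 3 (0.962% of all genes called higher), 3 without genistein 1 (1.55%) and 4 without genistein 2 (2.16%). It was 6 without DMSO 1 (3.39%), 4 without DMSO 2 (0.87%) and 5 without DMSO 3 (3.08%), and all these calls were higher. The 6 without DMSO 1 include TARS1. The calls over all genes thus became fewer in the same fits. With a BMP6 library left out, the cytosolic calls and those over all genes both became more numerous, as given at the end. AARS1 and MARS1 passed each time, SARS1 did not pass without genistein 3, and FARSB did not pass whichever genistein library was left out. WARS1 was lost with the removal of any genistein library or of DMSO 2, and IARS1 with that of genistein 1, genistein 3 or any DMSO library. CARS1 and LARS1 were lost whichever genistein or DMSO library was removed. Over all fits with 1 library left out, the log2 change ran from 1.98 to 2.50 for SARS1, 2.01 to 2.76 for FARSB, 1.80 to 2.23 for WARS1, 2.05 to 2.99 for IARS1, 1.12 to 1.52 for CARS1 and 1.37 to 1.72 for LARS1.

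The sign of the mitochondrial median also depended on single libraries. It was -0.46 without DMSO 1, where the median of all genes was -0.11, and -0.21 without genistein 1, where that of all genes was -0.10. It was 0.06 without DMSO 2 (all genes 0.10), 0.08 without DMSO 3 (all genes 0.18), 0.04 without genistein 2 (all genes 0.18) and -0.13 without genistein 3 (all genes 0.08). The cytosolic median lay between 1.12 and 1.51 in the same fits.

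**Figure D1:**
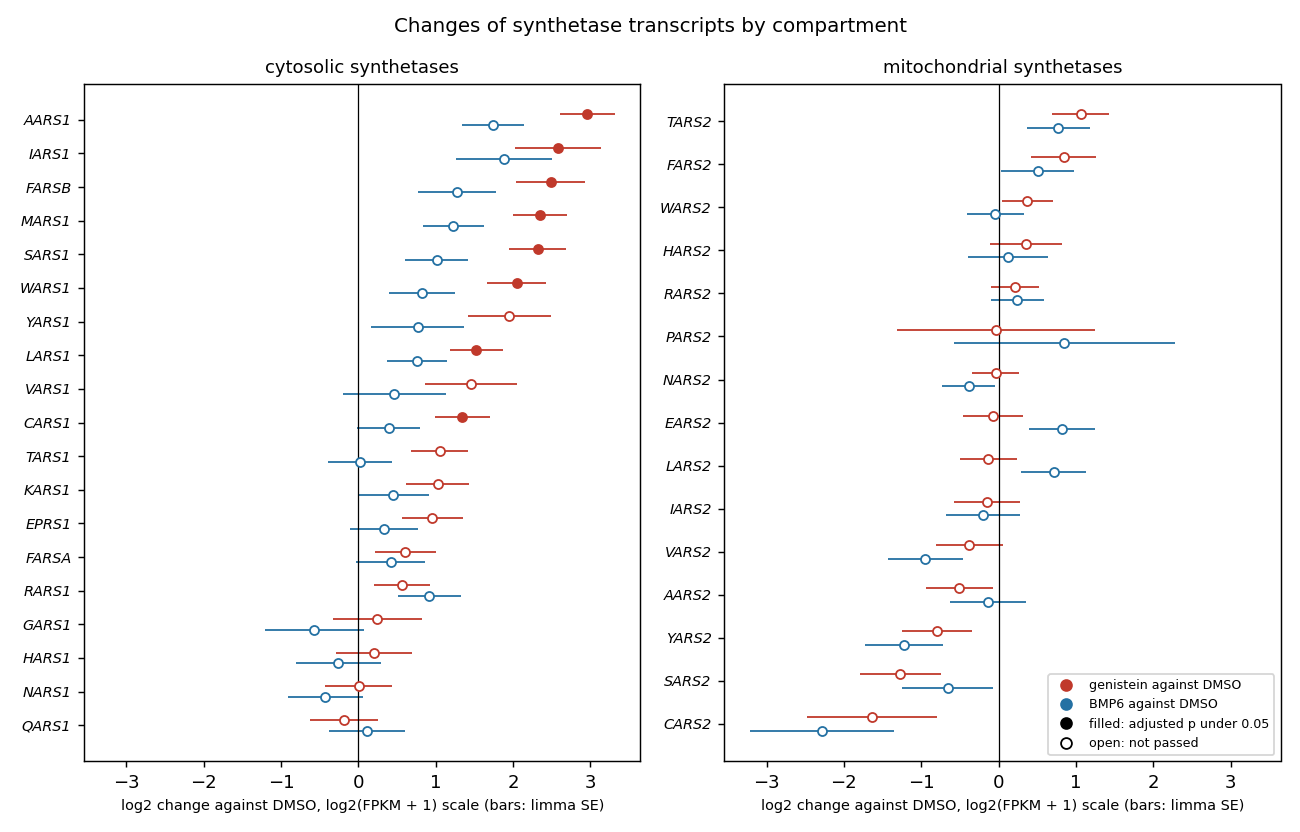
Log2 change of each synthetase with its SE from limma, cytosolic and mitochondrial sets apart, in genistein against DMSO and BMP6 against DMSO. The cytosolic points of the genistein comparison lie mostly to the right of 0, with AARS1 at 2.96, and the mitochondrial points lie on both sides of 0.

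The core of the C/EBP-ATF response element, the sequence to which ATF4 binds with a C/EBP partner, was looked for as TGATGNAA on both strands of promoter windows of 300 bases. The windows run from 250 bases before to 50 bases after each RefSeq gene start in GRCh38.p14. The letters were present in 7 of 16 cytosolic genes with a window (43.8%), in 1 of 13 mitochondrial genes (7.69%) and in 1217 of 27305 genes of the table (4.46%). They were present in 4 of 7 cytosolic genes that rose after genistein and in 3 of 9 that did not pass. LARS1, VARS1, YARS1, AARS2 and VARS2 had no window in the table. A match is a description of the letters and not a binding site. The matches are shown because they set the cytosolic genes beside the only mitochondrial gene that holds one, each as 30 bases read 5′ to 3′ on the gene's strand with the match in capitals.
AARS1: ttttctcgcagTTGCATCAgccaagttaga
IARS1: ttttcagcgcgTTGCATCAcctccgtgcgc
MARS1: gccggttccggTTGCATCAgcgagggattc
CARS1: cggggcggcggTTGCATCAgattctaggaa
TARS1: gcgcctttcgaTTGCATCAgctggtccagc
NARS1: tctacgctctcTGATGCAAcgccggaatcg
GARS1: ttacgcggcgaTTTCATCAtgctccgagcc
YARS2: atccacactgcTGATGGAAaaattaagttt
The stretches lie in GRCh38.p14 at chr16:70289675-70289704 (minus strand, AARS1), chr9:92293692-92293721 (minus, IARS1), chr12:57488053-57488082 (plus, MARS1), chr11:3057407-3057436 (minus, CARS1), chr5:33440956-33440985 (plus, TARS1), chr18:57621804-57621833 (minus, NARS1), chr7:30594834-30594863 (plus, GARS1) and chr12:32756076-32756105 (minus, YARS2). In AARS1 the match began 187 bases before the gene start, in GARS1 33, in IARS1 13, in MARS1 4 and in CARS1 2 bases before it. In TARS1 and NARS1 it lay within the transcript, 2 and 14 bases after the start base.

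Upstream bases of AARS1, the synthetase with the largest change after genistein, and of SARS1, which rose without a match, are printed for comparison. Both stretches are the 250 bases before the RefSeq start in GRCh38.p14, AARS1 at chr16:70289507-70289756 on the minus strand and SARS1 at chr1:109213643-109213892 on the plus strand, with the match in capitals.
AARS1: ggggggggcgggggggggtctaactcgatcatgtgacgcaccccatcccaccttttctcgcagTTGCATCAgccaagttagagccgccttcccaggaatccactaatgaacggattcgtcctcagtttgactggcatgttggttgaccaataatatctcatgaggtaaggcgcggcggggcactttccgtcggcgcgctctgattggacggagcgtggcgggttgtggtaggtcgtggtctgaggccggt
SARS1: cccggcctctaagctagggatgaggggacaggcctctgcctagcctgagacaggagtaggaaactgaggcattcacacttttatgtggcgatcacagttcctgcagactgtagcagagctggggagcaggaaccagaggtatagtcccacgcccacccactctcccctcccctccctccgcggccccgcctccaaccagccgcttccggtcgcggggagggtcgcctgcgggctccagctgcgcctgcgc
The match of AARS1 is the single one in its window, and that of SARS1 holds none.

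AARS1, the alanine enzyme, lies at chr16:68843798-68880913 in hg18, the build of the files. Its level was 1098, 993 and 986.5 FPKM in the genistein libraries, 373.5 and 515.8 FPKM with BMP6, and 82.34, 159.6 and 169.4 FPKM in the DMSO libraries. The 3 groups did not overlap, and the DMSO libraries were the lowest. AARS1 rose by a log2 change of 2.96 ± 0.36 (SE; limma adjusted p = 0.00492) after genistein, a 7.79-fold change. By mean level it stood 2nd of the cytosolic enzymes with genistein and 10th with DMSO.

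SARS1, the serine enzyme (chr1:109558063-109582308), measured 951.3, 631 and 840.2 FPKM in genistein libraries, 323.5 and 319.4 FPKM in BMP6 libraries, and 98.66, 203.6 and 198.9 FPKM in DMSO libraries. It again showed 3 separate groups, and its log2 change with genistein was 2.32 ± 0.37 (limma adjusted p = 0.00985). MARS1, the methionine enzyme (chr12:56168118-56196700), gave 646.8, 498.2 and 620.4 FPKM with genistein, 286.5 and 251.9 FPKM with BMP6, and 71.37, 135.4 and 153 FPKM with DMSO. It rose by a log2 change of 2.35 ± 0.35 (limma adjusted p = 0.00867), with no overlap between the groups. Its span overlaps that of DDIT3, a stress transcription factor, by 61 bases, and no source used here says whether the authors' counting used strand. DDIT3 measured 960.8, 885.9 and 609.3 FPKM with genistein and 101.6, 64.74 and 76.27 FPKM with DMSO, and the part of the overlap in the MARS1 value was not tested.

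IARS1, the isoleucine enzyme (chr9:94012446-94095819), measured 645.9, 321.1 and 696.1 FPKM with genistein, 447.5 and 229.7 FPKM with BMP6, and 40.78, 151.3 and 104.2 FPKM with DMSO. Its genistein libraries lay above all DMSO libraries and overlapped the BMP6 libraries. The log2 change with genistein was 2.59 ± 0.56 (limma adjusted p = 0.0244). LARS1, the leucine enzyme (chr5:145472783-145549064), measured 277.9, 172.3 and 235.9 FPKM with genistein, 185.9 and 93.26 FPKM with BMP6, and 76.34, 80.36 and 75.11 FPKM with DMSO. Its DMSO libraries spanned the narrowest range among the 8 genes relative to their level, and LARS1 rose (log2 change 1.53 ± 0.34, limma adjusted p = 0.0286).

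WARS1, the tryptophan enzyme (chr14:99869878-99912433), measured 309.5, 207.6 and 205.8 FPKM with genistein, 72.56 and 139.1 FPKM with BMP6, and 39.91, 61.28 and 73.37 FPKM with DMSO. WARS1 rose (log2 change 2.05 ± 0.38, limma adjusted p = 0.016), and 1 of the BMP6 libraries lay within the DMSO range. CARS1, the cysteine enzyme (chr11:2978728-3035247), measured 190.1, 119.9 and 115.6 FPKM with genistein, 56.73 and 88.28 FPKM with BMP6, and 39.39, 57.23 and 68.62 FPKM with DMSO. It showed the smallest change of the 8 genes, with a log2 change of 1.35 ± 0.36 (limma adjusted p = 0.0469), and the genistein libraries did not overlap the DMSO libraries.

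Of the subunits of the phenylalanine enzyme, FARSB passed the test and FARSA did not. FARSB (chr2:223144710-223229044) measured 688.9, 873 and 539.8 FPKM with genistein, 257 and 343.1 FPKM with BMP6, and 62.23, 179.7 and 161.3 FPKM with DMSO. FARSB rose (log2 change 2.49 ± 0.45, limma adjusted p = 0.0145), with all 3 groups apart. FARSA, its partner, measured 310.7, 305.9 and 220.3 FPKM with genistein, 158.2 and 369.3 FPKM with BMP6, and 150.4, 159.3 and 245.4 FPKM with DMSO, so the groups overlapped. The log2 change of FARSA was 0.61 ± 0.40 (limma adjusted p = 0.335). The ratio of FARSB to FARSA was 2.22, 2.85 and 2.45 in genistein libraries, 1.62 and 0.929 in BMP6 libraries, and 0.414, 1.13 and 0.657 in DMSO libraries. The difference between the subunits was not tested.

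**Figure D2:**
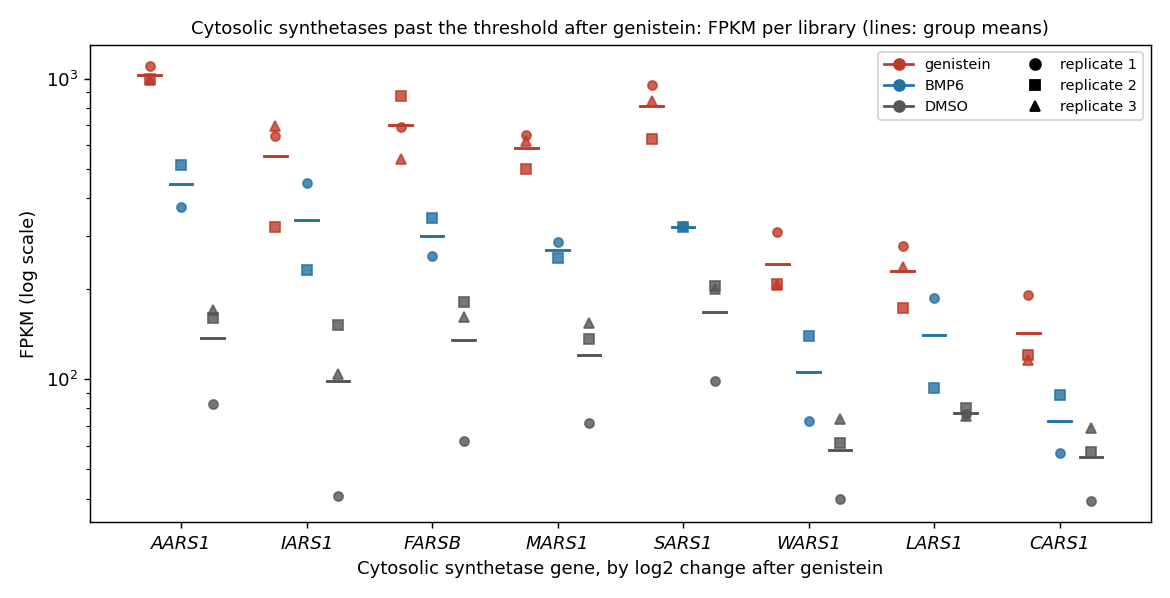
FPKM of the 8 cytosolic synthetases that rose after genistein, on a log axis, with a point for each library of the genistein, BMP6 and DMSO groups. In every gene the genistein points lie above the DMSO points, for AARS1 at 986.5 to 1098 against 82.34 to 169.4 FPKM.

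Of the cytosolic genes that did not pass, YARS1, the tyrosine enzyme, came nearest. It measured 336.5, 226.7 and 173.4 FPKM with genistein and 31.9, 77.01 and 88.51 FPKM with DMSO, with a log2 change of 1.96 ± 0.54 (limma adjusted p = 0.0517). VARS1, the valine enzyme, had a log2 change of 1.46 (adjusted p = 0.144), TARS1, the threonine enzyme, 1.05 (adjusted p = 0.0992), and EPRS1 0.96 (adjusted p = 0.145), and in these 3 genes too the genistein and DMSO libraries were separate. At the other end, NARS1, the asparagine enzyme, measured 386.8, 218.8 and 306.7 FPKM with genistein and 440, 272.4 and 214.8 FPKM with DMSO. Its log2 change was 0.00 ± 0.43 and the groups overlapped, and its promoter window holds the letters searched. QARS1, the glutamine enzyme, had a log2 change of -0.18 and HARS1, the histidine enzyme, one of 0.20, with overlapping groups in both. RARS1, the arginine enzyme, had a log2 change of 0.57 (adjusted p = 0.328).

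GARS1 and KARS1, the enzymes that serve both compartments, did not pass the test. KARS1, the lysine enzyme, was the most abundant cytosolic member by mean level in all 3 groups, at 1406, 1059 and 864.9 FPKM with genistein, 527.5 and 1016 FPKM with BMP6, and 367.3, 637.6 and 648.1 FPKM with DMSO. Its genistein libraries all lay above the DMSO libraries, and its log2 change was 1.03 ± 0.41 (limma adjusted p = 0.138). GARS1, the glycine enzyme, measured 457.4, 232.1 and 205 FPKM with genistein, 80.03 and 312.6 FPKM with BMP6, and 328.3, 253.5 and 155.9 FPKM with DMSO. Its groups overlapped, with a log2 change of 0.25 ± 0.57 (limma adjusted p = 0.8).

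The genes that rose belonged to both structural classes of synthetase, which differ in the fold of their catalytic domain. The counts and medians stand beside 6.11% called higher and a median log2 change of 0.05 over all tested genes. Of the class I cytosolic enzymes 5 of 9 rose (CARS1, IARS1, LARS1, MARS1 and WARS1), with a median log2 change of 1.53. Of class II 3 of 9 rose (AARS1, FARSB and SARS1), with a median of 1.03. EPRS1, which did not pass, was counted in neither class. Of the enzymes that sit in the multi-synthetase complex, the large assembly that holds several of them together, 3 of 7 rose, and of the free enzymes 5 of 12 rose, with medians of 1.03 and 1.40. Differences between these subsets were not tested.

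The mitochondrial partners of the genes that rose are given library by library. AARS2, the partner of AARS1, measured 33.44, 20.18 and 26.03 FPKM with genistein, 22.17 and 51.7 FPKM with BMP6, and 26.16, 50.71 and 39.24 FPKM with DMSO. IARS2 measured 112.8, 68.33 and 78.07 FPKM with genistein, 69.97 and 95.21 FPKM with BMP6, and 50.81, 126.8 and 128.3 FPKM with DMSO. The groups overlapped in both, with log2 changes after genistein of -0.51 and -0.15. LARS2 measured 28.64, 18.49 and 31.2 FPKM with genistein, 57.07 and 37.94 FPKM with BMP6, and 35.9, 21.21 and 28.8 FPKM with DMSO. WARS2 measured 52.22, 36.55 and 58.86 FPKM with genistein, 33.11 and 39.04 FPKM with BMP6, and 43.59, 40.37 and 28.99 FPKM with DMSO. FARS2, the single-chain phenylalanine enzyme of mitochondria, measured 55.19, 34.98 and 47.96 FPKM with genistein, 28.58 and 44.32 FPKM with BMP6, and 14.51, 29.47 and 35.28 FPKM with DMSO. In these 3 genes the genistein and DMSO libraries overlapped too.

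SARS2 and CARS2 stood lower with genistein than with DMSO in every library, without passing the test. SARS2 measured 47.82, 37.56 and 30.26 FPKM with genistein, 28.44 and 118.9 FPKM with BMP6, and 71.34, 125.7 and 88.93 FPKM with DMSO, a log2 change of -1.27 ± 0.53 (limma adjusted p = 0.149). CARS2, the most abundant mitochondrial member with DMSO, measured 251.4, 232 and 91.65 FPKM with genistein, 31.64 and 385 FPKM with BMP6, and 450.9, 723.5 and 495.6 FPKM with DMSO. Its log2 change was -1.63 ± 0.84 (limma adjusted p = 0.227), and its BMP6 libraries were far apart. YARS2 was likewise separate and lower, and TARS2 was the only mitochondrial gene separate and higher, with a log2 change of 1.06 (limma adjusted p = 0.0978). These 1 higher and 3 lower genes of 15 stand beside 23.3% and 20.6% of all tested genes. In other fits some of them passed. SARS2 was called lower with median-of-ratios scaling, quantile normalization, array weights and only the groups compared. In those fits 10.4%, 9.6%, 22% and 10.9% of all genes were called lower. CARS2 was called lower with array weights and with only the groups compared. TARS2 was called higher with median-of-ratios scaling, quantile normalization and array weights (7.32%, 9.32% and 20.6% of all genes called higher). PARS2, the proline enzyme, was listed at 0 in genistein 2 and DMSO 1.

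**Figure D3:**
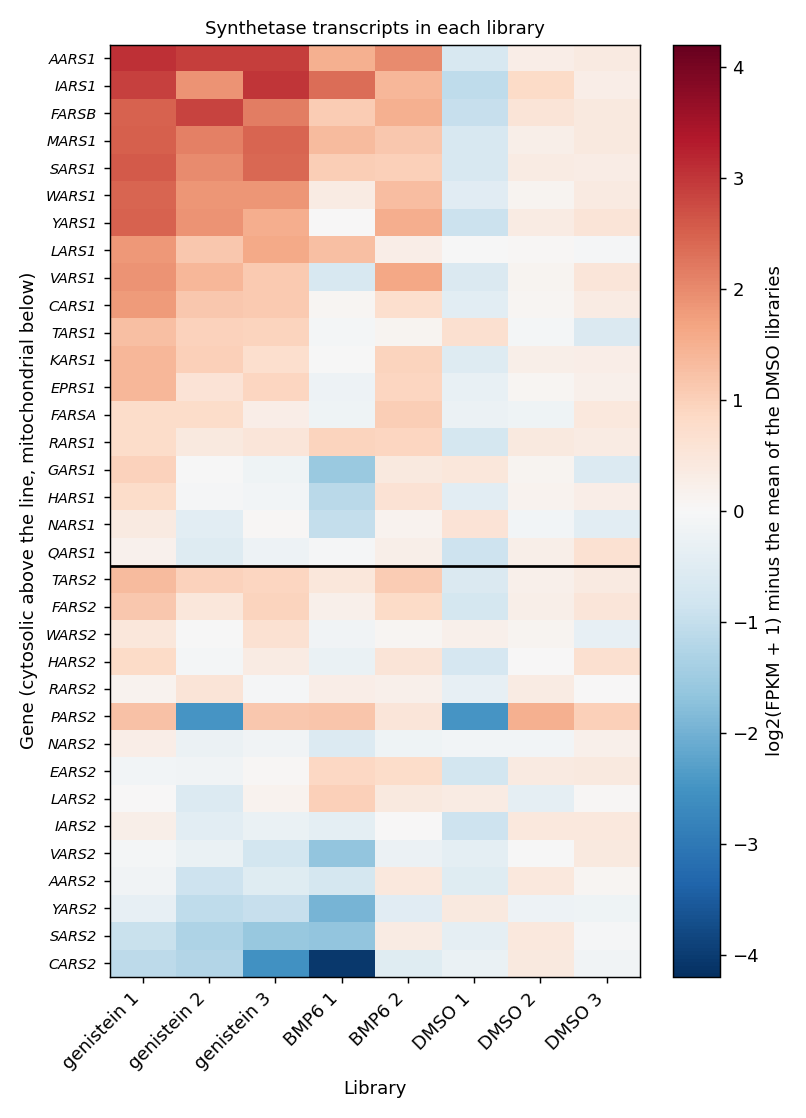
Log2(FPKM + 1) of each synthetase relative to its own mean over the DMSO libraries, in rows by compartment and columns by library, with genistein and BMP6 left of DMSO. Most cytosolic rows are above their DMSO mean in all 3 genistein libraries, and the mitochondrial rows lie on both sides of it.

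Summed over the 19 cytosolic genes, levels were 9831, 7320 and 7520 FPKM in genistein libraries, 4088 and 5925 FPKM in BMP6 libraries, and 2761, 3734 and 3819 FPKM in DMSO libraries. The sum over the 15 mitochondrial genes was 1212, 996 and 832 FPKM with genistein, 681 and 1366 FPKM with BMP6, and 1161, 1713 and 1517 FPKM with DMSO. CARS2 alone made up 251.4, 232 and 91.65 FPKM of the genistein sums. It made up 31.64 and 385 FPKM of the BMP6 sums and 450.9, 723.5 and 495.6 FPKM of the DMSO sums. The cytosolic sums of the genistein libraries were all above those of the DMSO libraries, and the mitochondrial ranges overlapped. The ratio of the median cytosolic to the median mitochondrial level was 7.01, 6.70 and 5.03 with genistein, 5.61 and 4.96 with BMP6, and 1.89, 3.35 and 3.36 with DMSO. DMSO 1 had the lowest value of the DMSO libraries in 15 of 19 cytosolic and 12 of 15 mitochondrial genes. Genistein 1 was the highest genistein library in 17 of 19 cytosolic and 11 of 15 mitochondrial genes. The FPKM total over all genes was likewise lowest of its group in DMSO 1 (1851985) and highest of its group in genistein 1 (2846743). How many of all tested genes share these orders was not counted.

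Taken amino acid by amino acid, 16 pairs of a cytosolic and a mitochondrial gene could be formed, some of them sharing EPRS1 or FARS2. The cytosolic gene had the larger log2 change after genistein in 13 of the 16 pairs. The ratio of AARS1 to AARS2 was 32.8 to 49.2 in genistein libraries, 9.98 to 16.8 in BMP6 libraries and 3.15 to 4.32 in DMSO libraries. For SARS1 to SARS2 it was 16.8 to 27.8 with genistein, 2.69 to 11.4 with BMP6 and 1.38 to 2.24 with DMSO. For IARS1 to IARS2 it was 4.7 to 8.92 with genistein, 2.41 to 6.4 with BMP6 and 0.803 to 1.19 with DMSO. In 2 pairs, those of CARS and VARS, the cytosolic gene was below the mitochondrial one in all DMSO libraries, and in 0 pairs was this so in all genistein libraries. The ratio of CARS1 to CARS2 was 0.517 to 1.26 with genistein and 0.0791 to 0.138 with DMSO, and that of VARS1 to VARS2 was 1.54 to 1.93 with genistein and 0.416 to 0.529 with DMSO. The pairs with the smaller cytosolic change were those of FARSA, HARS1 and TARS1, and no test was made over pairs.

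**Figure D4:**
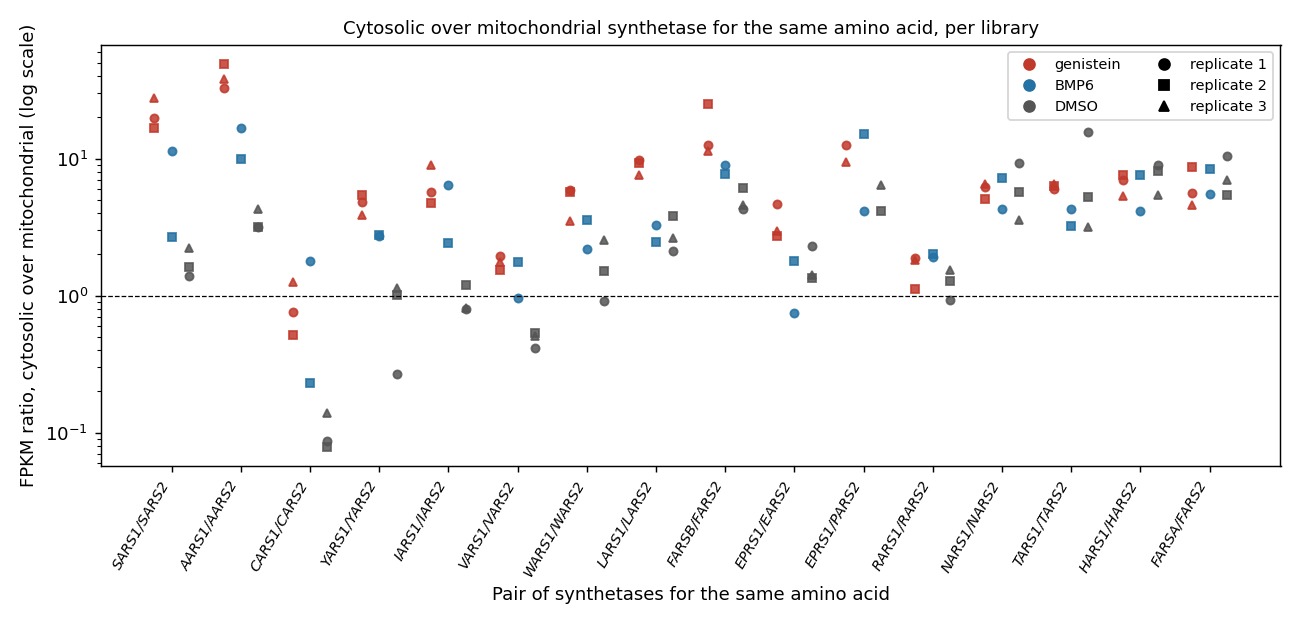
Ratio of the cytosolic to the mitochondrial FPKM for each amino acid on a log axis, with a point for each library of the genistein, BMP6 and DMSO groups. The genistein points of AARS1 to AARS2 lie between 32.8 and 49.2 and the DMSO points between 3.15 and 4.32, while those of NARS1 to NARS2 overlap.

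With BMP6 against DMSO, 0 of 19 cytosolic and 0 of 15 mitochondrial genes were called by limma. Among all tested genes 0.34% were called higher and 0.498% lower (0.837% in either direction). At an unadjusted limma p under 0.05 there were 5 of 19 cytosolic and 2 of 15 mitochondrial genes, beside 2388 of all 12661 tested genes. The median log2 change was 0.47 over the cytosolic set, -0.04 over the mitochondrial set and -0.03 over all genes. Both BMP6 libraries were above all DMSO libraries in 7 cytosolic genes, AARS1, FARSB, IARS1, LARS1, MARS1, RARS1 and SARS1, against 16.1% of all tested genes. AARS1 had a log2 change of 1.74 ± 0.40 (limma adjusted p = 0.0895) and IARS1 one of 1.88 ± 0.62 (limma adjusted p = 0.175). Among mitochondrial genes EARS2, LARS2 and TARS2 were separate and higher, and CARS2, NARS2 and YARS2 separate and lower, against 16.1% and 17.3% of all tested genes (33.3% in either direction). BMP6 1 was below BMP6 2 in 14 of 19 cytosolic and 11 of 15 mitochondrial genes. The FPKM total of BMP6 1 was also lower (1704599 against 3105197), and the share over all tested genes was not counted. Without BMP6 2, 4 mitochondrial genes were called lower (CARS2, SARS2, VARS2 and YARS2), beside 12.4% of all genes in that fit. Without BMP6 1 there were 0, beside 0.0793% of all genes. Without BMP6 1 the median log2 change was 0.93 over the cytosolic set, 0.35 over the mitochondrial set and 0.23 over all genes. Without BMP6 2 it was 0.01 over the cytosolic set, -0.28 over the mitochondrial set and -0.35 over all genes.

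Genistein set directly against BMP6 gave 0 calls by limma in either set, while 0.64% of all tested genes were called higher and 0.75% lower (1.39% in either direction). The unadjusted limma p was under 0.05 for 7 of 19 cytosolic and 0 of 15 mitochondrial genes, beside 1855 of all 12661 tested genes. The median log2 difference was 0.81 over the cytosolic set, 0.23 over the mitochondrial set and 0.12 over all genes. Without BMP6 1 these medians were 0.42, -0.18 and -0.20, with 12 of 19 cytosolic differences positive, against 40.4% over all genes. Without BMP6 2 the medians were 1.18, 0.53 and 0.43. In 7 cytosolic genes the genistein libraries all lay above the BMP6 libraries, against 16.3% of all genes, and in RARS1 below, against 12.6% (28.9% in either direction). The log2 difference was 1.31 ± 0.41 for SARS1 (limma adjusted p = 0.189) and 1.22 ± 0.40 for AARS1 (limma adjusted p = 0.205). EARS2 and LARS2 were lower with genistein in every library. The comparisons with DMSO share the same 3 DMSO libraries, so their values are not independent of each other.

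Some genes that act beside the synthetases also rose after genistein, where 6.11% of all tested genes were called higher. Of the 3 scaffold proteins of the multi-synthetase complex 1 rose, EEF1E1, which measured 429.1, 299.4 and 313.6 FPKM with genistein and 95.87, 161.5 and 158.7 FPKM with DMSO (log2 change 1.34 ± 0.34, limma adjusted p = 0.0392). Of 9 genes of cytosolic tRNA handling 2 rose, XPO5, an exporter of small structured RNA from the nucleus, with a log2 change of 1.89 (limma adjusted p = 0.0179), and XPOT, the tRNA exporter, with 1.23 (limma adjusted p = 0.0494). Of 12 genes of cytosolic elongation and initiation 3 rose. They were EIF2S2 (log2 change 1.97, limma adjusted p = 0.0211) and EIF2S1 (1.66, limma adjusted p = 0.0445), subunits of the eIF2 that brings initiator tRNA to the ribosome, and EIF1 (1.91, limma adjusted p = 0.0499), a factor in start codon choice. In these 3 lists 0 genes fell. Whether calls outside the synthetase sets held with a library left out was not examined.

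Of 13 mitochondrial translation factors 1 rose, a share near the 6.11% of all tested genes called higher. It was QRSL1, the amidotransferase subunit named above. QRSL1 measured 44.09, 37.16 and 43.88 FPKM with genistein, 35.54 and 20.82 FPKM with BMP6, and 4.532, 8.574 and 11.96 FPKM with DMSO. The genistein libraries lay above all others, and the log2 change against DMSO was 2.27 ± 0.42 (limma adjusted p = 0.0159). Of 17 genes of the amino acid response 10 rose after genistein and 0 fell, with a median log2 change of 1.69, against 6.11% called higher and a median of 0.05 over all tested genes. ASNS, asparagine synthetase, rose by a log2 change of 3.86 (limma adjusted p = 0.0017), and SLC7A11, the cystine transporter subunit, by 4.28 (limma adjusted p = 0.00151). MTHFD2, a mitochondrial folate enzyme, rose by 3.55 (limma adjusted p = 0.00286) and DDIT3 by 3.32 (limma adjusted p = 0.00375). The other 7 did not pass, among them ATF4 (log2 change 0.51, limma adjusted p = 0.563), whose genistein and DMSO libraries overlapped. The letters TGATGNAA were present in 4 of 15 genes of this list with a promoter window (26.7%), against 4.46% of all genes with a window. In the BMP6 comparison with DMSO, 1 of the 17 genes rose, SLC7A11 (log2 change 2.51, limma adjusted p = 0.026), against 0.34% of all tested genes called higher.

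Some values rest on genes whose spans meet. In hg18 coordinates YARS1 overlaps S100PBP by 591 bases, SARS2 overlaps MRPS12 by 189 bases and EARS2 overlaps UBFD1 by 305 bases, and these values are uncertain to that extent. S100PBP measured 52.9, 27.5 and 168 FPKM with genistein and 7.76, 17.4 and 20.3 FPKM with DMSO, higher with genistein in every library as YARS1 was, and the part of the overlap in the YARS1 value was not tested. AARS2 lies within the span of TMEM151B, which was at most 1.53 FPKM in any library, and QARS1 lies within that of IHO1, which was listed at 0 in all libraries. HARS1 and HARS2 lie 46 bases apart. Among 561 pairs of members, 1 pair, AARS2 and TARS2, shared any run of 30 bases in GENCODE v29 transcripts, and reads shared with pseudogenes were not examined.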

How the data were processed

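The deposited files hold FPKM values per Ensembl gene, 1 file per library, per the file headers. The submitters' processing notes list Cufflinks 1.0.3, Cuffdiff, TopHat 1.1.0, Bowtie and hg18. The authors' settings and use of strand are not given in the sources used here. Sequencing depth is unknown, so no counting interval or detection floor is given, and an exact 0 may be a failed estimate. Symbols were matched for 19069 of 20897 genes. Coordinates are those of the files, counted from 1. The groups came from the sample titles.

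Values were converted to log2(FPKM + 1), and genes that reached 1 FPKM in 2 or more libraries were fitted with limma 3.58.1 in R 4.3.3, with all 8 libraries, a trend in the variance and a threshold of 0.05 on the Benjamini-Hochberg adjusted p (two-sided). The fit had 5 residual and 3.22 prior degrees of freedom and was tested on simulated data. A fold change on this scale understates the change of low genes. Values in every library are given for members past the threshold, for GARS1 and KARS1, and for the mitochondrial partners, and FARSA, YARS1 and NARS1 were added after their values were seen. Of the other lists up to 4 genes past the threshold with the smallest p are named, and some that did not pass are named too, among them ATF4. The members and lists were chosen with earlier results of these data known. Promoter sequences are from RefSeq (GRCh38.p14). Alternatives changed the pseudocount, filter, scaling, weights, groups, replicate block and libraries, and leaving out DMSO 1 and genistein 2 together was chosen after seeing the data.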

Additional observations from a re-analysis of the deposited data

How the results depend on the processing

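AARS1 and MARS1 passed the threshold after genistein in all 17 alternatives, SARS1 in 16, FARSB in 13, WARS1 in 11, IARS1 in 10, CARS1 in 9 and LARS1 in 8, and none of the 8 reversed. LARS1 had an adjusted p of 0.0554 under median-of-ratios scaling. The 8 cytosolic calls for genistein against DMSO became 13 with array weights, whose estimation stopped before convergence, and 3 without DMSO 1 and genistein 2; leaving out one library at a time gave 2 (without genistein 3) to 10 (without either BMP6 library), among them 3 without genistein 1, 4 without genistein 2 and 4 without DMSO 2. The 0 mitochondrial calls became 2 with median-of-ratios scaling, 2 with quantile normalization (1 higher and 1 lower each), 4 with array weights (1 higher, 3 lower) and 2, both lower, with only the groups compared, and ranged from 0 to 2 over libraries left out. For BMP6 against DMSO, cytosolic calls became 1 with median-of-ratios scaling and 1 with quantile normalization, and mitochondrial calls ranged from 0 without BMP6 1 to 4 without BMP6 2. Under median-of-ratios scaling the all-gene median for genistein against DMSO was -0.05 in place of 0.05 (log2), where the cytosolic median was 1.23 and the mitochondrial -0.19, and the mitochondrial median for BMP6 against DMSO became 0.03. Same-numbered genistein and DMSO libraries had deviation correlations of -0.146, -0.0652 and -0.0046. Those of genistein and BMP6 had -0.247 and 0.286, and those of DMSO and BMP6 0.0554 and 0.0014. The labels state no pairing, and with so few libraries per group these values cannot show whether the samples were paired. A replicate block left 4 cytosolic calls for genistein against DMSO. Calls over all genes for genistein against DMSO (1527) became 2395 with quantile normalization, 5383 with array weights, 414 with the replicate block, 2690 with only the groups compared, 424 without DMSO 1 and genistein 2, and 229 to 2671 over libraries left out. For BMP6 against DMSO the 106 became 38 with a mean of at least 5 FPKM, 382 with median-of-ratios scaling, 338 with quantile normalization, 8 with array weights, 4 with the replicate block, 17 with only the groups compared, 164 without DMSO 1 and genistein 2, and 5 to 1999 over libraries left out. For genistein against BMP6 the 176 became 417 with median-of-ratios scaling, 424 with quantile normalization, 38 with array weights, 7 with the replicate block, 37 with only the groups compared, and 42 to 629 over libraries left out. Of members that did not pass, 10 of 26 for genistein against DMSO, 16 of 34 for BMP6 against DMSO and 15 of 34 for genistein against BMP6 changed sign in some alternative, none past the threshold with the opposite sign. The cause of these shifts was not tested.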
